A study of Caenorhabditis elegans with 2 samples.

Results

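The genes described here are 31 protein-coding genes of C. elegans, of 19973 in the annotation, that serve neurons broadly or build and move synaptic vesicles. They form a list of names, drawn up with earlier results of these data known, and all 31 names matched a gene symbol in the Ensembl WBcel235 annotation. The data are ChIP-seq lists for LIM-6, a LIM homeodomain transcription factor, in whole late embryos. The strain, OP388, has the genotype unc-119(ed3) III with the insertion wgIs388, from which LIM-6 carries GFP and FLAG at its C-terminus, and chromatin was recovered with an antibody to GFP. Hermaphrodite embryos of this 1 transgenic line had been collected 5 hours after synchronization by egg bleaching, and biological replicates 1 and 2 gave 1 library each. All material belongs to 1 group, so there is no contrast between conditions, no test was made, and every share below is a description set beside the same share over all genes.

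Neurons release small transmitters from synaptic vesicles, which dock and fuse through the SNARE proteins, and neuropeptides from dense-core vesicles. Kinesin motors carry the precursors of both along the axon, and endocytosis recovers the membrane after release. Most neurons of the worm use these genes, while LIM-6 itself is known from a small number of neuron classes and a few other cells, and CUT homeodomain proteins are known regulators of pan-neuronal genes in this animal. In whole embryos, occupancy in few cells and weak occupancy in many cells cannot be told apart.

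The authors deposited a relaxed list of regions for each library and for both pooled, and a list of 570 reproducible peaks, identical to the top 570 of the pooled list by signal. The pooled list held 25887 regions, replicate 1 held 21953 and replicate 2 held 27731. The signal is a value per region given by the authors, with medians of 27.9, 16.6 and 15.9 in the 3 lists, and it is not on 1 scale between the pooled and the single-library lists. The relaxed lists hold background by their label, so a region in them is not a binding site by itself. A region counted for a gene when its summit fell in a span from 1000 bp before any annotated transcript start of that gene (5′ end) to 500 bp after it, called the promoter window here. Ranks run from 1 for the highest signal of a list, and a percentile is the share of the regions in that list with the same or a lower signal.

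Reproducible peaks lay in the promoter windows of 3 of the 31 genes, which were unc-14, ric-3 and egl-21. That is 9.68%, against 2.61% of all protein-coding genes. Of the 25 genes with any pooled region in the window, the same 3 make 12%, against 6.37% of all genes with such a region. The 3 belong to different steps. unc-14 encodes a RUN domain protein of axonal transport, ric-3 a chaperone of nicotinic acetylcholine receptors, and egl-21 a carboxypeptidase E that matures neuropeptides.

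The peak of highest signal was at unc-14, with a pooled signal of 92.6 at rank 367 and a summit 18 bp upstream of its only annotated 5′ end. In the window of unc-14 the highest region had a signal of 44.3 in replicate 1 and 54.6 in replicate 2. These were ranks 451 and 287, so both libraries placed unc-14 above the 97th percentile of their lists. A second pooled region with a signal of 35.01 lay 220 bp upstream and overlapped the same library regions.

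The ric-3 peak had a pooled signal of 90.03 at rank 400 and lay 239 bp upstream, with 50.1 in replicate 1 and 40.7 in replicate 2. The egl-21 peak had a pooled signal of 80.2 at rank 564, 86 bp upstream, with 36.6 in replicate 1 and 46.6 in replicate 2. egl-21 was thus near the end of the reproducible list, whose lowest signal was 80.03. The next highest promoter signal among the 31 genes was at rgef-1, outside that list. This gene encodes a Ras guanine nucleotide exchange factor, and its promoter is widely used to drive pan-neuronal transgenes. Its pooled signal was 69.3 at rank 843, 239 bp upstream, with 32.4 in replicate 1 and 36.5 in replicate 2. The 2 libraries of rgef-1 were closer to each other than those of the 3 genes with a peak. The deposited −log10 q-value was 2.62 at each of the 3 peaks, a value that all 570 reproducible peaks share, and 2.38 at rgef-1.

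The sequences under these summits are shown because they are the DNA that the highest promoter signals rest on. Each runs from 50 bases before to 50 bases after the pooled summit in WBcel235, the assembly that ce11 also names, and is written 5′ to 3′ on the strand of the gene. Capitals at ric-3 mark a letter match to ATCGAT, a motif of CUT homeodomain type. Capitals at unc-18 mark the GAGAGA motif, here read on the other strand. They lie at chrIV:7817962-7818062 for ric-3 (plus strand), chrIV:10481880-10481980 for egl-21 (minus strand), chrV:9561863-9561963 for rgef-1 (minus strand) and chrX:7682447-7682547 for unc-18 (plus strand).
ric-3: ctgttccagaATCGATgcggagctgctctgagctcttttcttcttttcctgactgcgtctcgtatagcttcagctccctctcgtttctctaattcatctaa
egl-21: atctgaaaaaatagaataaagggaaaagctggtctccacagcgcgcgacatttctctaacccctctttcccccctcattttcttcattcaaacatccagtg
rgef-1: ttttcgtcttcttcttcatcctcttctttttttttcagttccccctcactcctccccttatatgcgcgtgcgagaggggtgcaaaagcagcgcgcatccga
unc-18: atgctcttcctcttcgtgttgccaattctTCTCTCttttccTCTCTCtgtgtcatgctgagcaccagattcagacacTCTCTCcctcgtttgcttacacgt

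All 4 lie in intergenic DNA, and every 31-mer within 100 bp of these summits occurs once in the assembly. In none of the 4 was the window shared with the promoter window of another gene.

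Pooled regions of any strength were in the promoter windows of 25 of the 31 genes, 80.6% against 41% of all genes. Replicate 1 had a region at 22 of them, 71.0% against 36.8%, and replicate 2 also at 22, 71.0% against 42%. Both libraries had one at 18 genes, 58.1% against 25%, not always at the same place in the window. Many of these genes have several annotated 5′ ends and so more window, with a median of 2 ends against 1 over all genes. Per kb of promoter window there were 0.525 pooled regions, 39 in 74.3 kb, against 0.270 over all genes. Each region was counted once here, while window lengths were summed over genes even where neighbouring windows overlap. That lowers the value over all genes, so the 2 values are not strictly alike. Among the 12 genes with a single 5′ end, 9 had a pooled region and 3 a reproducible peak, where 35.2% and 2.04% of all such genes did. Among the 19 with several ends, 16 had a pooled region and 0 a reproducible peak, where 56.4% and 4.13% of all such genes did.

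Where a gene had a region, its highest one ranked at a median percentile of 85.9 over the 25 genes, with a median signal of 42.0. Over the 8189 genes of the annotation with a region the medians were 62.9 and 31.1. With genes that lack a region counted as 0, the median over all 31 was 83.5, and over all 19973 genes it was 0, since fewer than 50% had one. In the library lists the medians were 87.9 for replicate 1 and 85.3 for replicate 2, against 61.5 and 62.2. The gap between the 31 genes and all genes was therefore present in each library, although most of the regions concerned are below the reproducible list.

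**Figure D1:**
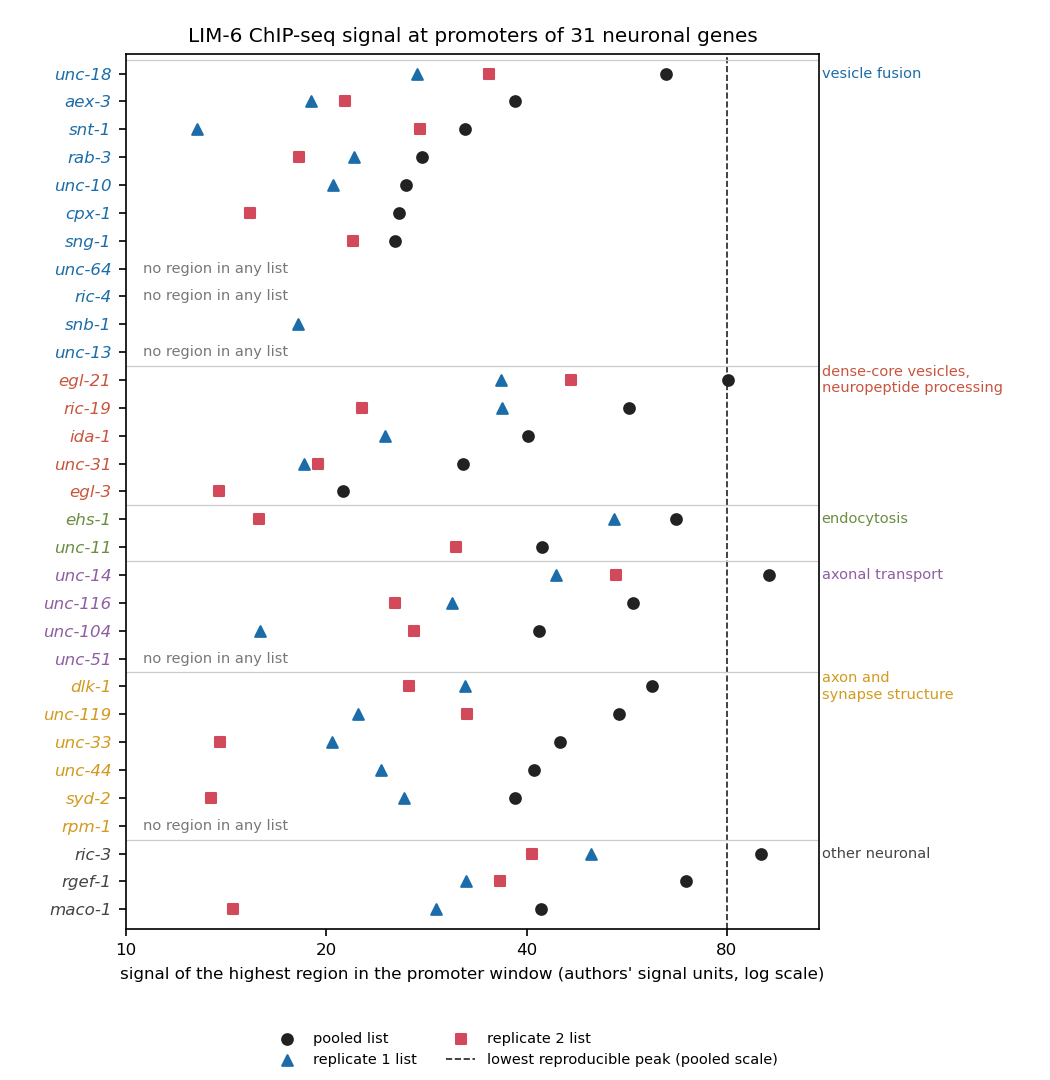
Signal of the highest region in the promoter window of each of the 31 genes, on a log axis in the authors' units, for the pooled list (circles), replicate 1 (triangles) and replicate 2 (squares), grouped by role. The dashed line is the lowest reproducible signal, 80.03, which applies to the circles only, and unc-14, ric-3 and egl-21 are at or above it while 5 genes have no region in any list; points of 1 gene can come from different places in its window.

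The genes of vesicle fusion had the lowest median percentile of the 6 role groups in the pooled list. None of the 11 had a reproducible peak in the window, against 2.61% of all genes, and with 11 genes a count of 0 is near that share. A pooled region was present at 7, 63.6% against 41% of all genes. The median percentile of these 7 was 49.4, against 62.9 over all genes with a region. In the library lists the medians of this group were 70.7 and 79.8, and in replicate 2 the groups of dense-core vesicles, endocytosis and axon and synapse structure were lower, at 76.9, 71.9 and 60.1. The highest was at unc-18, the Munc18 partner of syntaxin, with a pooled signal of 64.9 at rank 1008 and a summit 399 bp upstream. unc-18 had 27.4 in replicate 1 and 35.1 in replicate 2, so it was high in both lists. The next were aex-3, the exchange factor of RAB-3, at 38.5 and snt-1, synaptotagmin, at 32.3. The small GTPase gene rab-3 had 27.8, the RIM gene unc-10 had 26.4, the complexin gene cpx-1 had 25.7 and the synaptogyrin gene sng-1 had 25.4. These last 4 values are below the median of the pooled list.

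The SNARE genes had hardly any listed region at their promoters. unc-64, which encodes syntaxin, and ric-4, which encodes SNAP-25, had no promoter region in any of the lists, nor did unc-13, the priming factor. Such absence is common, since 8864 of all 19973 genes had no promoter region in any list and only 41% had a pooled one. snb-1, which encodes synaptobrevin, had no pooled region and 1 region in replicate 1, with a signal of 18.1 at rank 8361 and -722 bp from the 5′ end. Away from promoters, unc-64 had 1 pooled intronic region of signal 30.7, and unc-13 had 4 intronic regions with signals from 21.2 to 31.1 in 25.5 kb of intron. ric-4 had intronic regions in single libraries only, at 14.8 in replicate 1 and 17.5 in replicate 2, at different places. No region near the level of the reproducible list was thus seen at any of the 3 SNARE genes, and with the read depth unknown a weaker signal at them cannot be bounded.

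The 5 genes of dense-core vesicles and neuropeptide processing all had a pooled promoter region, against 41% of all genes. Their median percentile was 83.5, against 62.9 over all genes with a region. After egl-21 came ric-19, an ICA69 ortholog of dense-core vesicle maturation, with a pooled signal of 56.9 at rank 1470, 105 bp upstream. ric-19 had 36.7 in replicate 1 and 22.6 in replicate 2, ranks 759 and 4867. Its region also lay in the promoter window of pmlr-1, and it was the only highest region of the 25 that another protein-coding gene shared.

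The range within this group was wide. ida-1, the IA-2 ortholog, had 40.2 at 38 bp inside the gene, with 24.5 in replicate 1 and no promoter region in replicate 2. unc-31, the CAPS protein that dense-core vesicle release depends on, had 32.04 upstream of one of its 5 ends, where replicate 2 had 18.9 and replicate 1 had no region. That summit falls in an exon and within 250 bp of the snRNA gene ZK897.3, whose part in the signal was not tested. At another end of unc-31 a second pooled region of 31.7 had 13.4 in replicate 1 and 19.4 in replicate 2. egl-3, the proprotein convertase that cuts neuropeptide precursors before EGL-21 trims them, had 21.2 at rank 24248, with a region in replicate 2 only, at 13.8. The 2 enzymes of the same pathway were therefore at opposite ends of the pooled list, at percentiles of 97.8 and 6.34.

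Both endocytosis genes had a pooled region far upstream, while 41% of all genes had one anywhere in the window. ehs-1, the Eps15 ortholog, had a pooled signal of 67.01 at rank 920, 860 bp upstream, and unc-11, the AP180 clathrin adaptor, had 42.2 at rank 3603, 842 bp upstream. In the window of ehs-1 replicate 1 had 54.2 at rank 250 and replicate 2 had 15.8 at rank 14042. This was the widest gap between libraries among the highest regions of the 25 genes, a log2 ratio of 1.77, and the high pooled signal rests on replicate 1. unc-11 had 31.3 in replicate 2. A replicate 1 region of 33.8 overlapped its pooled region too, but with a summit 222 bp away and outside the window. The stretch at ehs-1 is shown because its signal is the one the libraries disagreed on most. It lies at chrII:5819802-5819902 on the plus strand, 91.8% of the 31-mers around it are unique, and it holds none of the searched motifs.
ehs-1: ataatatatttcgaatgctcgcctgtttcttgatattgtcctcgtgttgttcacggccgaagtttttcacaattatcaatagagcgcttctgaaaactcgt

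Among the 4 axonal transport genes, unc-14 had its reproducible peak and 2 others had a pooled promoter region. Over all genes 2.61% had a reproducible peak and 41% a pooled region in the window. unc-116, the heavy chain of kinesin-1, had a pooled signal of 57.7 at rank 1405, with 30.9 in replicate 1 and 25.4 in replicate 2. Its summit was 60 bp inside the gene, in an exon. unc-104, the kinesin-3 motor that carries synaptic vesicle precursors, had 41.7 at 29 bp upstream, and the library regions overlapping it had 14.3 and 27.1, with the replicate 1 summit 264 bp away. unc-51, the ULK-type kinase whose partner is UNC-14, had no promoter region in any list. UNC-14 and UNC-51 act together in axon growth, and of the pair only unc-14 had a listed promoter region.

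Of the 6 genes of axon and synapse structure, 5 had a pooled promoter region, 83.3% against 41% of all genes. None had a reproducible one, against 2.61%, and with 6 genes a count of 0 is near that share. dlk-1, a MAP kinase kinase kinase of axon regeneration and synapse formation, had 61.7 at rank 1161, with 32.3 in replicate 1 and 26.6 in replicate 2. Its summit lay 300 bp downstream of a 5′ end, in an exon. rpm-1, the ubiquitin ligase that holds DLK-1 down, had no promoter region in any list.

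unc-33, the CRMP ortholog, had 44.9 at 210 bp upstream of one of its 3 ends, with 20.4 and 13.43 in the library regions overlapping it. The ankyrin gene unc-44, with 8 annotated 5′ ends and the widest window of the 31 genes, 6.99 kb, had 40.97, and the active zone liprin gene syd-2 had 38.5. unc-44 had a promoter region in replicate 1 alone, at 24.17, although a replicate 2 region of 24.8 overlapped its pooled region with a summit 188 bp away. syd-2 had 26.1 in replicate 1 against 13.4 in replicate 2. Replicate 1 was thus higher at unc-33 and syd-2, and the libraries were close at unc-44.

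unc-119 encodes a chaperone of lipid-modified proteins, and its mutant allele ed3 is in the background of the strain. Its highest promoter region had a pooled signal of 55.1 at rank 1614, 59 bp upstream of an internal 5′ end, with 22.4 in replicate 1 and 32.5 in replicate 2. The summit falls in an intron of the longer isoform. The stretch below is shown because strains of this kind are usually selected by unc-119 rescue, and it lies at chrIII:10906347-10906447 on the plus strand. The labels do not say which unc-119 sequence the insertion carries, and its part in these values was not tested.
unc-119: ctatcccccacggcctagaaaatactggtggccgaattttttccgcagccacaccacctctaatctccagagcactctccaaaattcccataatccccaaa

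The remaining gene of the other neuronal group, maco-1, which encodes macoilin, had 42.04 at 692 bp upstream, with 29.3 in replicate 1 and 14.5 in replicate 2. Together with ric-3 and rgef-1 this gave the group a median percentile of 96.7, against 62.9 over all genes with a region. All 3 genes had a promoter region in both libraries, where 25% of all genes did. The 3 have no vesicle role in common.

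The libraries were set against each other at these genes. The highest pooled region was overlapped by a region of both libraries at 18 of 25 genes, 72% against 49.4% of such regions over all genes. Over these 18 the log2 ratio of replicate 1 to replicate 2 was 0.20 ± 0.68 (SD over regions), against -0.01 ± 0.53 over 3470 regions of all genes. Replicate 1 alone had a promoter region at snb-1, unc-10, ida-1 and unc-44, and replicate 2 alone at cpx-1, sng-1, egl-3 and unc-11. Over all genes, 36.8% had a region in replicate 1, 42% in replicate 2 and 25% in both. Regions in 1 library alone were thus common among all genes too. Read depth is not given in the sources used here, and its part in these gaps was not tested. Among the 570 highest regions of replicate 1 were ehs-1, unc-14 and ric-3, and among those of replicate 2 were egl-21 and unc-14, where 2.55% and 2.49% of all genes had one. unc-14 was the only gene of the 31 in both sets.

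**Figure D2:**
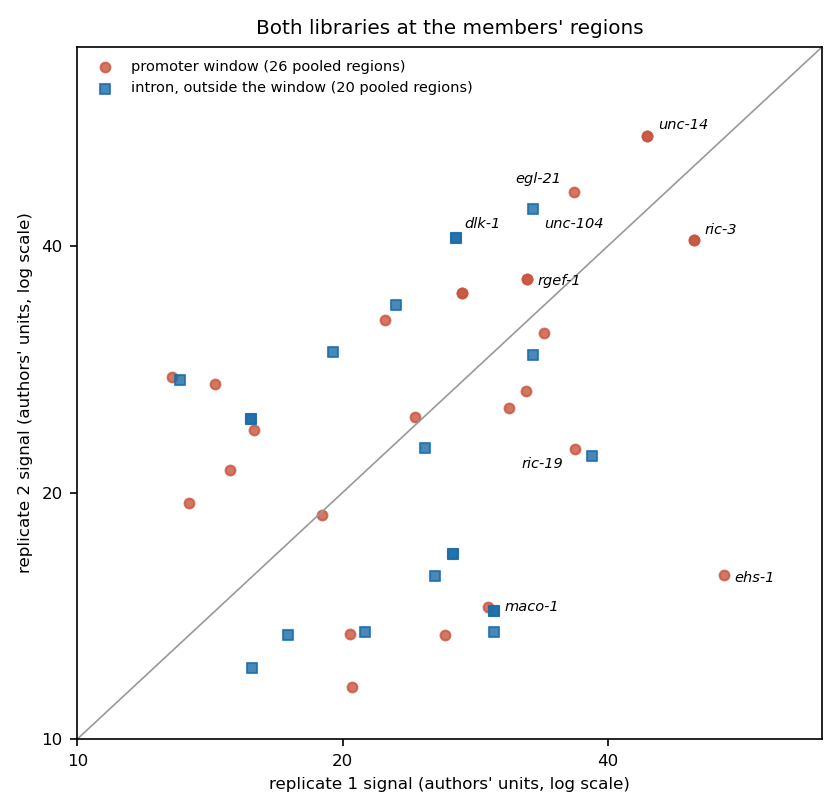
Signal in replicate 1 (x axis) and replicate 2 (y axis), in the authors' units on log axes, of the pooled regions of the 31 genes that a region of each library overlaps, 26 in promoter windows (circles) and 20 in introns outside them (squares); the line marks equal values. unc-14, ric-3 and egl-21 are high in both libraries, while ehs-1 combines 54.2 in replicate 1 with 15.8 in replicate 2, and darker points are neighbouring pooled regions that share a library region.

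Positions within the promoter windows were also compared. The 39 pooled regions had 21 summits in intergenic DNA, 6 in introns and 12 in exons. The highest region lay upstream of the nearest 5′ end of its gene in 17 of 25, 68%, against 71.1% over all genes, so the shares on that side were similar. Its median distance from the 5′ end was 239 bp, against 308 bp. In all 25 no other protein-coding gene had a nearer 5′ end, against 83.5% over all genes, and only the ric-19 region also fell in the window of a neighbour.

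**Figure D3:**
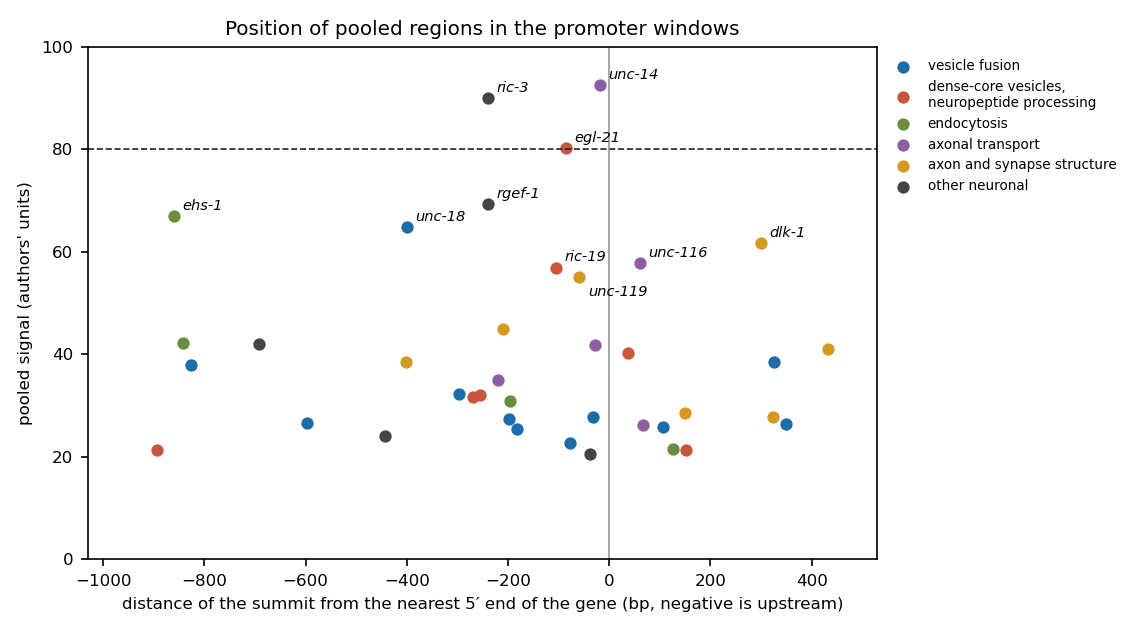
Pooled signal (y axis, authors' units) of the 39 pooled regions in the promoter windows against the distance of the summit from the nearest 5′ end of the gene (x axis, bp), coloured by role. The dashed line is the lowest reproducible signal, and the points above it, unc-14, ric-3 and egl-21, all lie within 239 bp upstream of the 5′ end.

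Introns of the 31 genes held 38 pooled regions, in 17 genes. That is 54.8% of the genes, against 23.7% of all genes with an intron, and none was reproducible, against 0.684%. Of the 38 regions, 6 were also counted in the promoter windows above. The other 32 lay in 13 genes, where the share over all genes was 18.1%. The 31 genes have long introns, 4.62 kb per gene against 1.85 kb. Per kb of intron they had 0.265 regions against 0.240 over all genes, which is near the background. The higher share of genes with an intronic region is thus not matched by a similar excess per kb. unc-33 and unc-119 had the most, 5 each, and the genes of axon and synapse structure together held 16 of the 38. The 5 of unc-119 include its promoter region at -59 bp.

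The intronic signals of 60 or so were few. unc-104 had the highest, 76.5 at rank 638, followed by dlk-1 at 69.5, unc-33 at 64.1, a second region of unc-104 at 60.01 and unc-119 at 59.95. The unc-104 value is the closest below the reproducible list among all regions of the 31 genes. In the libraries these regions of unc-104 had 32.9 and 38.4 in replicate 1 and 44.4 and 22.2 in replicate 2, each named in the order of the pooled signals. The dlk-1 region, 796 bp inside the gene, had 26.9 and 40.9 in replicates 1 and 2.

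3 of these 5 regions lie at tRNA genes or a tRNA pseudogene inside the introns, a match looked up after the values were seen. The highest unc-104 summit falls in the tRNA pseudogene C52E12.t1, and 52.0% of the 31-mers around it are unique. The second lies 97 bp and 112 bp from the tRNA genes C52E12.t2 and C52E12.t3, in sequence that is entirely unique. The unc-33 summit lies 18 bp from the tRNA gene M57.t1, in sequence that is 67.3% unique, and had 22.999 in replicate 1 and 33.9 in replicate 2. Of all intronic pooled regions 2.10% lie within 250 bp of a tRNA gene or pseudogene, and of the 311 with a signal over 60, 15.1% do. How far reads of other tRNA copies enter these values was not tested. One more intronic region, of signal 30.2 in unc-51, lies in sequence that is 22.8% unique.

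The DNA of the highest intronic regions is given to show this, with capitals marking the bases inside C52E12.t1 in the first and the GAGAGA motif, read on the other strand, in the last. They lie on the plus strand at chrII:7001594-7001694 and chrII:7003126-7003226 in unc-104 and at chrIII:10905200-10905300 in unc-119, and were chosen after their values were seen.
unc-104, signal 76.5: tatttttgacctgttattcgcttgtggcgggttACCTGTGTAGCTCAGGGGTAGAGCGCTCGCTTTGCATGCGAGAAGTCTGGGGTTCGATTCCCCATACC
unc-104, signal 60.01: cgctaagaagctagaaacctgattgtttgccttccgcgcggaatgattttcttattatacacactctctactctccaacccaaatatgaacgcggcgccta
unc-119, signal 59.95: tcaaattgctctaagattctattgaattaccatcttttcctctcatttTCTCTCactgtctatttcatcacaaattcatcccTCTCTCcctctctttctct

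The unc-119 region has no tRNA gene near it and lies 1206 bp upstream of the internal 5′ end, inside the first intron of the longer isoform. Its libraries were close, 32.9 in replicate 1 and 29.4 in replicate 2. With the promoter region at -59 bp, unc-119 thus had regions of similar pooled signal at both sites, 59.95 and 55.1. Elsewhere in introns, unc-31 had 51.4, unc-14 44.98 and unc-51 38.9.

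**Figure D4:**
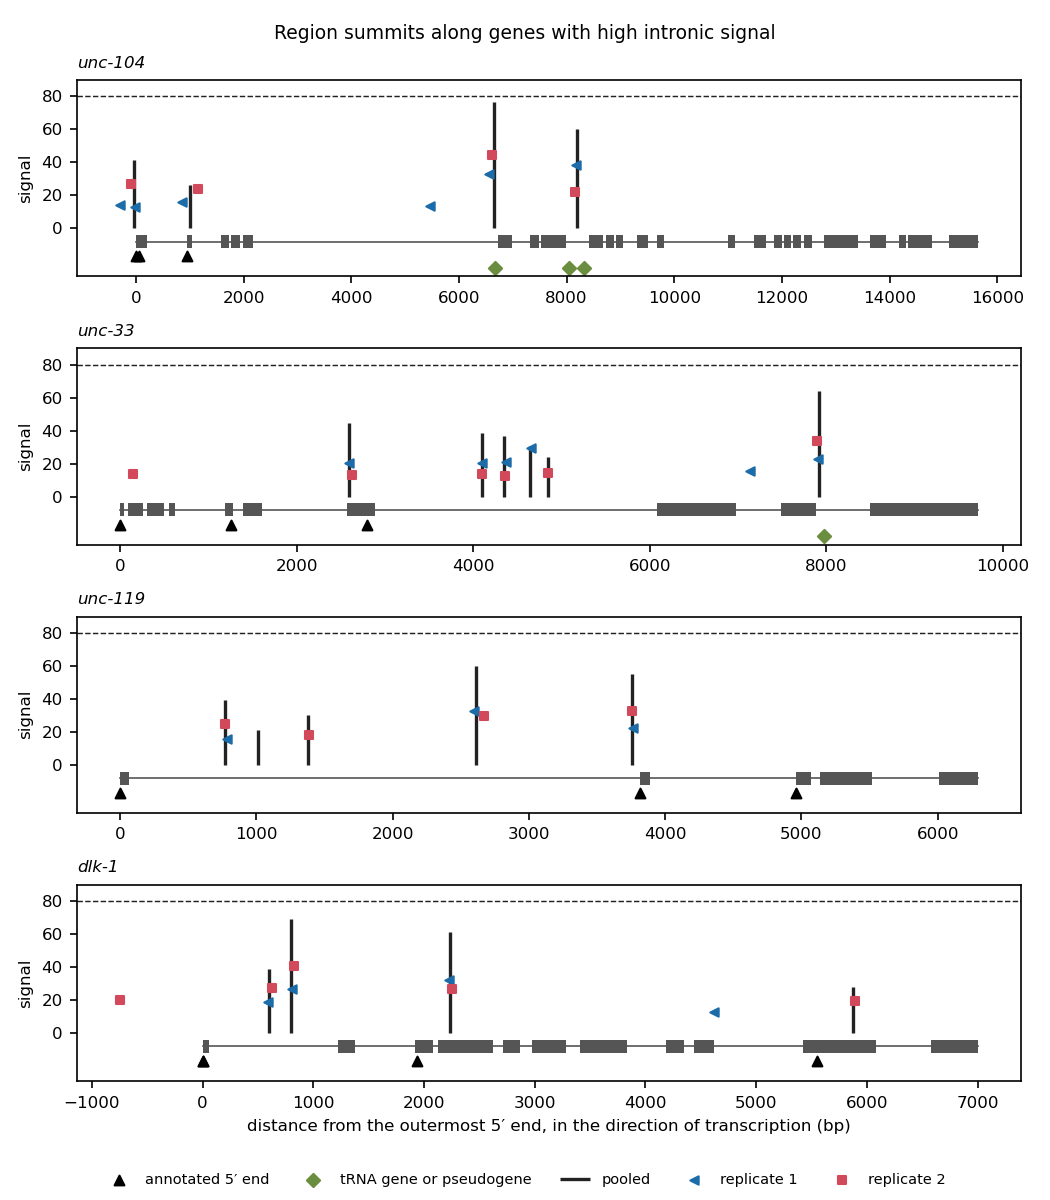
Pooled region summits (lines) and library summits (triangles for replicate 1, squares for replicate 2) along unc-104, unc-33, unc-119 and dlk-1, with signal in the authors' units on the y axis and bp from the outermost 5′ end on the x axis. Boxes are exons, black triangles annotated 5′ ends and diamonds tRNA genes or pseudogenes; the dashed line is the lowest reproducible signal on the pooled scale, which no line reaches, and the tallest lines in unc-104 and unc-33 stand at the diamonds.

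Motifs were searched as letters, in either orientation and up to 100 bp from a summit, and a match is not a site. TAATTA, the core of LIM homeodomain sites, was at the highest promoter regions of 2 of 25 genes, unc-104 and unc-116. That is 8%, against 7.58% of all pooled regions and 8.19% of the highest promoter regions of all genes. TTAATTAA, which holds TAATTA, was at none of the 25, against 1.31%. None of the 3 reproducible promoter peaks had TAATTA within 100 bp of the summit.

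GAGAGA was at 6 of the 25, 24% against 17.6% of all pooled regions. It was at 19.9% of the highest promoter regions of all genes and 34.6% of the reproducible peaks. The 6 were unc-18, unc-14, unc-33, rgef-1, maco-1 and ric-3. ATCGAT was at 5 of the 25, 20% against 6.97% of all pooled regions. It was at 8.32% of the highest promoter regions of all genes and 7.72% of the reproducible peaks. These 5 were egl-21, unc-31, unc-11, syd-2 and ric-3, and 2 of them, egl-21 and ric-3, had a reproducible peak. Among the 38 intronic regions TAATTA was at 4, GAGAGA at 9 and ATCGAT at 1. The counts are small, and nothing follows from them about any factor.

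Other genes of the same processes were set beside the 31. Of 56 further synapse and axon genes, 5 had a reproducible promoter peak, 8.93% against 2.61% of all genes, and 41 had a pooled region. The 5 were nsf-1, the ATPase that recycles SNARE complexes, at 169.9, unc-108, which encodes RAB-2, at 103.3, the AP-2 subunit gene apa-2 at 88.9, the dense-core vesicle gene hid-1 at 84.7, and cebp-1, a transcription factor downstream of DLK-1, at 83.1. The median percentile of the 41 was 82.6 in the pooled list, against 85.9 for the 25. In replicate 1 the medians were 67.9 and 87.9, and in replicate 2 they were 79.8 and 85.3. Of 60 genes of general membrane trafficking, which all cells use, 6 had a reproducible peak, 10.0%, and 39 a pooled region with a median percentile of 82.9. The share of the 31 genes, 9.68%, thus lay between those of these 2 lists. With genes that lack a region counted as 0, the median percentile was 63.4 for the synapse and axon list and 49.98 for the trafficking list, below the 83.5 of the 31. Window sizes differ between the lists, with a median of 3, 1 and 2 annotated 5′ ends in the same order. Per kb of promoter window the trafficking genes had the most pooled regions, 0.570, against 0.525 for the 31 and 0.426 for the synapse and axon list. Of the genes with a pooled region, 15.4% of the trafficking genes had a reproducible peak, 12% of the 31 and 12.2% of the synapse and axon genes.

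Neuropeptide genes, most of which are each used by few neurons, had lower values. None of 140 had a reproducible promoter peak, 55 had a pooled region, 39.3% against 41% of all genes, and their median percentile was 58.8. The enzymes that process their products, egl-21 and egl-3, were at percentiles of 97.8 and 6.34, as given above. No test of these differences between lists was made.

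**Figure D5:**
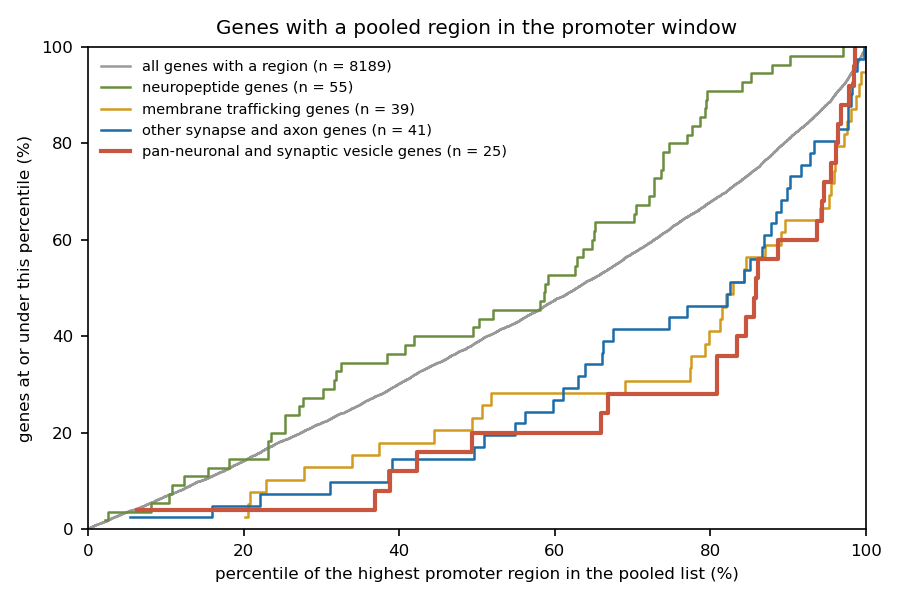
Cumulative share of genes (y axis, %) by the percentile of their highest promoter region in the pooled list (x axis, %), for genes with a pooled region, in 5 sets. The curve of the 25 pan-neuronal and synaptic vesicle genes lies to the right of that of all 8189 genes over most of its range, near those of 41 synapse and axon and 39 membrane trafficking genes, while the 55 neuropeptide genes lie near or to the left of all genes.

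The authors also deposited a reproducible list for the same data in the ce10 build, with 858 regions, 849 of which matched a ce11 pooled region by chromosome and signal. By that list 4 of the 31 genes had a reproducible promoter peak, the same 3 and rgef-1, where 3.53% of all genes did. unc-104 and dlk-1 each had an intronic region in it too. The 2 lists thus differ at genes whose regions stood below the lowest signal of the ce11 reproducible list.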

How the data were processed

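ChIP-seq of GFP-tagged LIM-6 from late embryos gave 2 libraries of 1 group. The authors deposited lists of regions in ce10 and ce11 with a signal per region and a −log10 q-value, per the file layout. The signal is not a read count. The sources used here name no aligner or peak caller and no read depth. Only the ce11 lists were placed on genes, by their summits, with WBcel235 and all transcripts of protein-coding genes in Ensembl release 115. From ce10 only signals and chromosomes of the reproducible list were used, matched to the closest ce11 signal within 0.1%.

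Intronic means in an intron of the gene and in no exon of a protein-coding gene. A library value for a pooled region is that of the highest library region overlapping it by at least 1 bp, so neighbouring pooled regions can share one. Uniqueness is the share of 31-mers within 100 bp of the summit that occur once in the assembly. Named in full were genes with a reproducible peak, the 10 of highest promoter signal, and unc-119. The members, gene lists and motifs were chosen with earlier results of these data known. Of the listed names, 1 synapse and 2 trafficking names matched no symbol. Placement was tested on 200 simulated regions planted at random positions around 5′ ends, inside and outside the promoter window. Whether a region lay in the window was called rightly for 200 of 200, and whether it lay in an intron for 200 of 200. Python 3.11.15, numpy 2.4.6 and matplotlib 3.10.9 were used.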

Additional observations from a re-analysis of the deposited data

How the results depend on the processing

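The number of genes with a reproducible promoter peak was 3 in the narrower and wider windows, against 1.93% and 3.32% of all genes. It was also 3 with the nearest gene only, with any overlap and in sequence at least 90% unique, against 1.82%, 2.84% and 2.33%. By the ce10 list it was 4, against 3.53%. It was 0 in the upper part of the reproducible list by signal, against 1.45%. With 31 genes a count of 0 is near that share. Among the 1000 highest pooled regions the number was 5, against 4%. By construction these last settings admit fewer or more regions. With 1 library left out the number was 2 to 3, against 2.49% to 2.55%. The median percentile was 83.5 in the window of 500 bp upstream and 250 bp downstream and 91.3 in that of 2000 bp upstream, against 63.6 and 65.3 over all genes. With 1 library left out it was 85.3 to 87.9, against 61.5 to 62.2. Genes with a pooled promoter region numbered 20 to 28 over the alternatives, where 25.1% to 52.2% of all genes had one. They numbered 22 with either library left out, against 36.8% to 42.0%. Those with an intronic region numbered 13 to 18, against 18.1% to 25.0%. They numbered 18 with either library left out and 16 without regions near tRNA genes. Those with a promoter region in both libraries numbered 14 to 20, against 14.9% to 21.8%. Of the single genes, ehs-1 moved most, from a percentile of 96.5 to 49.4 without replicate 1. The ce10, uniqueness and tRNA settings were chosen after the data were seen. No paired analysis was possible because both libraries belong to 1 group. With unknown depth, no limit can be given for a gene without a region.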
